A study of Saccharomyces cerevisiae with 312 samples.

Results

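UBX2 encodes an integral membrane protein of the yeast endoplasmic reticulum, and the barcoded strain altered in this gene was followed across every query mutation of a genetic interaction screen. UBX2 was chosen by its own log2 ratios, for its low level in proteasome mutants, so these values are a description and carry no test. The strain was found by the gene symbol that the array annotation gives to each feature. UBX2 is 1 of 4125 strains with a value, and 1 of 15744 array features carries its symbol, so no second barcode was available to set beside it. A value was present on 311 of 312 arrays.

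Ubx2 binds the AAA ATPase Cdc48 through its UBX domain and holds it at the ubiquitin ligases of endoplasmic-reticulum-associated degradation (ERAD). There Cdc48, with Ufd1 and Npl4, pulls ubiquitinated proteins out of the membrane and passes them to the proteasome. A share of Ubx2 works at the mitochondrial protein import channel, and the protein is also known to act in the processing of Mga2 and Spt23, the membrane-bound transcription factors that switch on the fatty acid desaturase Ole1.

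In each screen a query mutation was crossed into a pool of barcoded mutants, haploid double mutants in a mixed BY4741 and BY4742 background were selected, and the population grew for 18 generations under G418 and nourseothricin. Barcodes of the query population, in Cy3, were hybridised against those of a reference population, in Cy5. The 312 arrays cover 304 screens of 154 query mutations, of which 139 were gene deletions, 11 were DAMP alleles, which make the transcript unstable, and 4 were TETO2 alleles, whose promoter can be repressed. Each query is a single mutation tested in a pooled population, with 2 to 4 screens for 140 queries and 1 screen for 14.

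The proteasome queries were deletions of 12 genes, namely RPN4, UBP6, SEM1, PRE9, IRC25, POC4, RPN10, ADD66, NAS6, NAS2, RPN14 and HUL5. They were set against all other queries with a UBX2 value. The reference population was a mix of many deletions on 252 arrays, and a single deletion strain on 60, which was that of YEL068C on 59 of them. Every population, the reference included, carried a marked mutation besides the barcoded one and saw the same drugs. Levels are log2 ratios of query over reference population, so a negative value means fewer UBX2 cells in the query population. The labels do not say whether screens of a query came from separate cultures, so the spread between them may be technical. Fewer cells and less barcode DNA per cell cannot be told apart. The direction of 17 arrays in 2 reference pools was turned on the basis of linkage, and queries that rest on such arrays are named beside their values.

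After leaving out queries within 100 genes of UBX2, 149 queries and 293 screens held a value. UBX2 had a mean over queries of -0.30 (SD 1.60, n = 149) and a median of 0.05. The middle of the distribution was narrow, with quartiles at -0.67 and 0.63, while the tails reached -7.65 and 2.42. There were 71 queries below 0 and 78 above it. The low tail held 23 queries at -1 or lower, and the high tail 11 at 1 or higher.

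The spread between screens of the same query was 0.60 (pooled SD), and the median SD per query was 0.38. Of 133 steps between neighbours in the order of queries with at least 2 screens, only 3 had screen ranges that did not overlap. Most neighbouring places in the order are therefore not told apart by their screens. Neighbours among 134 ordered queries lie close in mean, so this count does not bear on queries further apart. Between query means the SD was 1.60. For 8 screens hybridised on 2 arrays, the gap between both UBX2 values had a median of 0.10 and was largest in the TRM112 query, at 1.41.

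For the other strains, a strain was counted as lowered or raised in a query at an adjusted p under 0.05 in limma over all strain and query pairs and a log2 size of at least 1. Over all pairs, 2.37% were called lower and 1.24% higher, and in the 12 proteasome queries 5.57% were called lower and 1.3% higher. No such call is given for UBX2, since the same query means chose it.

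**Figure D1:**
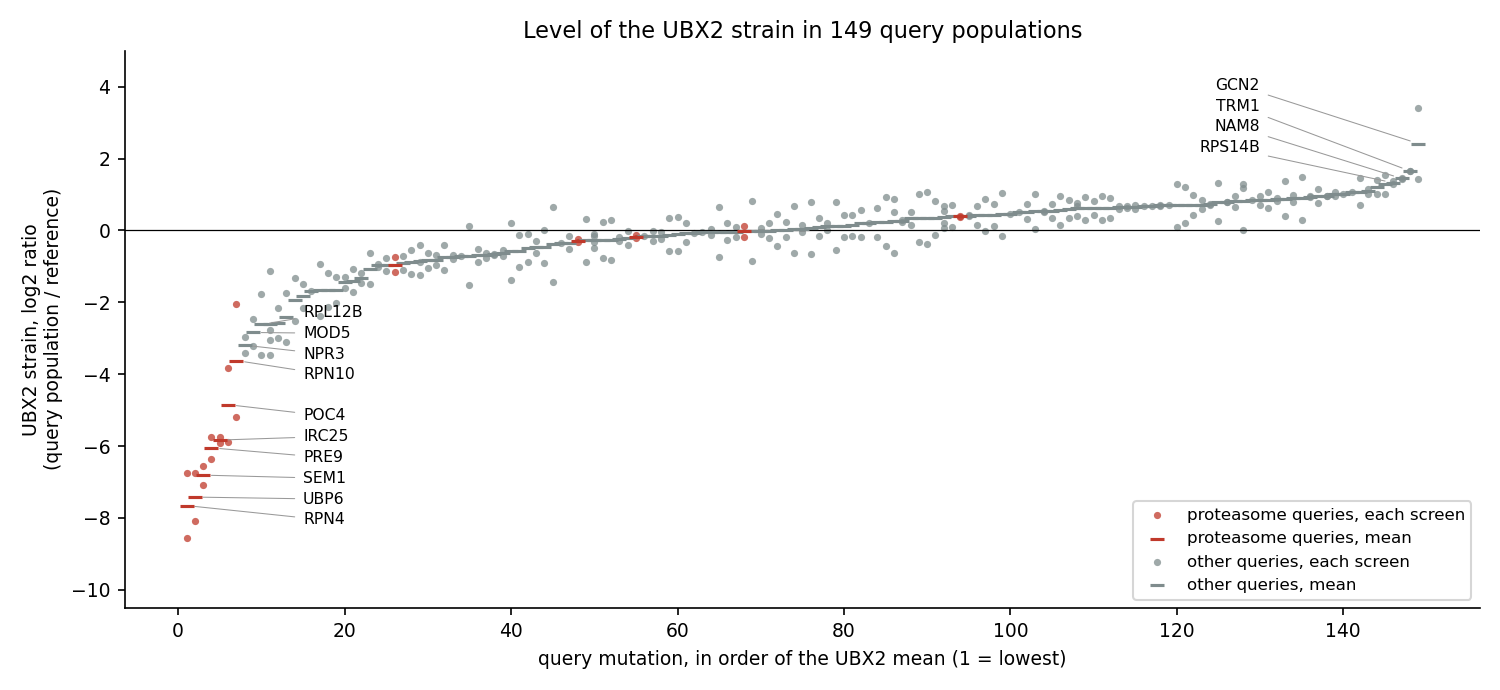
UBX2 level in each of 149 queries, ordered by the query mean on the x axis, with the log2 ratio of query over reference population on the y axis (points are screens, dashes are means; proteasome queries in red). The 7 queries with the lowest means are all proteasome queries, and the curve is flat through most of the order.

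The proteasome queries delete genes of different parts of the particle. PRE9 encodes the only alpha subunit of the 20S core that cells can do without, SEM1 a small lid subunit, RPN10 a ubiquitin receptor of the regulatory particle, and RPN4 the transcription factor of the proteasome genes. UBP6 and HUL5 encode a deubiquitinase and a ubiquitin ligase bound to the particle. IRC25, POC4 and ADD66 encode chaperones of core assembly, and NAS2, NAS6 and RPN14 chaperones of base assembly.

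UBX2 stood at -8.57 and -6.74 in the screens of the RPN4 query. In the UBP6 query it stood at -8.09 and -6.75, and in the SEM1 query at -6.54 and -7.07. These are the lowest UBX2 values of the series. UBX2 had -6.36 and -5.74 in the PRE9 query, and -5.74 and -5.93 in the IRC25 query. The POC4 screens gave -5.87 and -3.82. RPN10 had the widest spread of the class, at -5.19 and -2.05, so its mean of -3.62 is the least certain of the 7 low ones. All 14 screens of these 7 queries were at -2.05 or lower.

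Of the other 5 proteasome queries, ADD66 had UBX2 below the lower quartile of all queries, and the 4 others had it between the quartiles. ADD66 gave -0.73 and -1.17, and NAS6 gave -0.34 and -0.25. The values were -0.21 and -0.14 in NAS2 and 0.14 and -0.18 in RPN14. HUL5 gave 0.38 and 0.41, the single proteasome query with both screens above 0. The deletions of base assembly chaperones thus all lay between -0.29 and -0.02 in mean, while the core assembly chaperones split, with POC4 at -4.85 and IRC25 at -5.83, and ADD66 at -0.95. Along the order of the class, 5 of 11 steps had screen ranges that did not overlap: SEM1 to PRE9, RPN10 to ADD66, ADD66 to NAS6, NAS6 to NAS2 and RPN14 to HUL5. With 2 screens per query, ranges can miss each other without a difference in level. The step from NAS6 to NAS2 was 0.12, beside a pooled SD within queries of 0.60. Neighbours such as RPN4 and UBP6, or PRE9 and IRC25, did not differ beyond their screens.

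The class averaged -3.61 ± 3.19 (SD, n = 12 queries) against -0.01 ± 0.96 in the other queries (n = 137), a difference of -3.60. Of 4125 strains, 1 had a lower difference, the RPN4 strain at -3.65. That strain was averaged over 11 proteasome queries, without its own, in which UBX2 was lowest. Its gap to UBX2 is far inside the SE of its difference, 0.76. The lowest mean outside the class was -3.19 and the lowest screen -3.46, and 13 of the 24 proteasome screens lay below that screen.

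**Figure D2:**
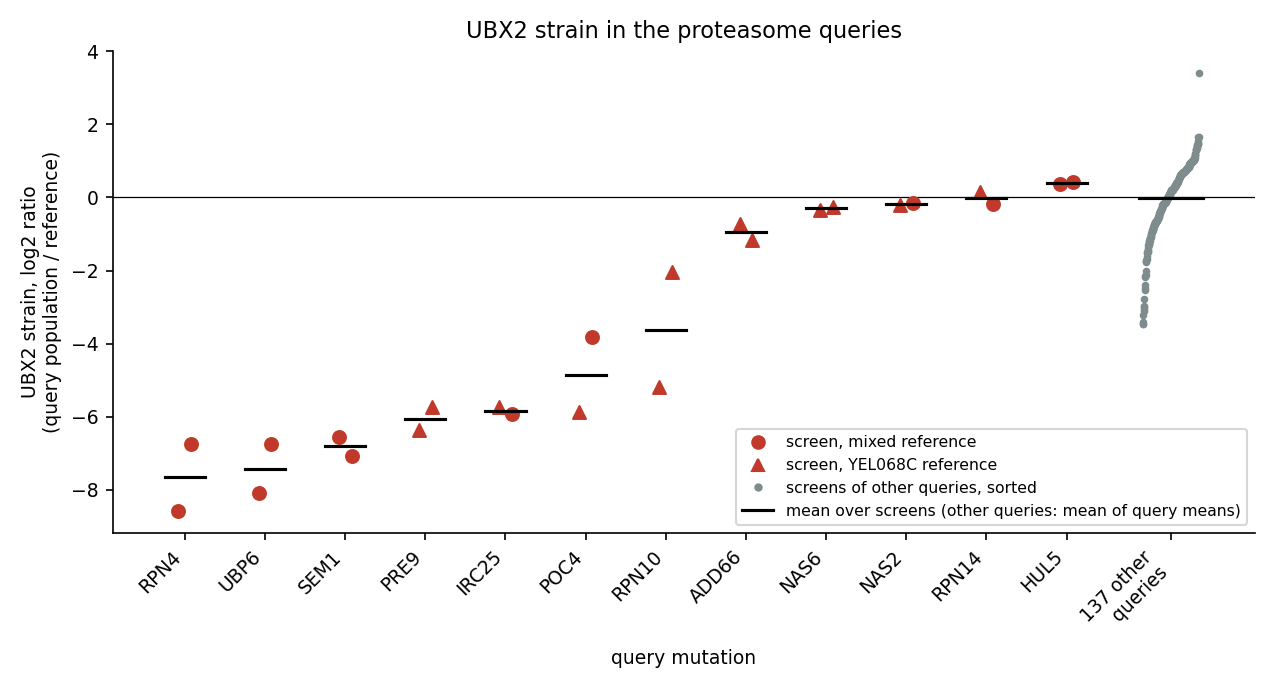
UBX2 log2 ratio (y axis) in every screen of the 12 proteasome queries (x axis; circles have the mixed reference, triangles the YEL068C reference, black lines are means), with all screens of the 137 other queries sorted at the right. The 7 queries from RPN4 to RPN10 have means of -3.62 or lower. The other 5 overlap the grey points, as does the RPN10 screen at -2.05.

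How far UBX2 stood out from the rest of the pool differed between these queries. In the PRE9 query only 1 strain of 3998 had a lower mean, and UBX2 ranked 3 in each screen. In IRC25 it ranked 2 of 3976 by the mean and 2 in each screen. SEM1 placed it at rank 4 of 3999 and POC4 at rank 4 of 3969. In RPN4 and UBP6, where its value was lowest, its rank was 22 of 4001 and 25 of 4038. RPN10 placed it at rank 62 of 4050.

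These queries changed the pool to unlike degrees. RPN4 lowered 581 strains, UBP6 483 and SEM1 416, against 314 for RPN10, 281 for POC4, 243 for PRE9 and 143 for IRC25. The other 5 proteasome queries lowered 6 (HUL5) to 37 strains (RPN14). Across 134 queries the UBX2 mean and the number of lowered strains had an r of -0.679, and an r of -0.543 over the 122 queries outside the proteasome class. Points in these correlations share strains and reference pools, and UBX2 itself is among the strains counted. Quantile normalization, which gives every array the same spread, put UBX2 at -5.75 in PRE9, -5.11 in SEM1 and -5.08 in IRC25. It stood at -3.66 in POC4, -3.24 in UBP6, -3.19 in RPN4 and -2.24 in RPN10, so the order within the class turned while all 7 means stayed below -2. Queries outside the class also fell below -2 in this setting. They were IRC13 at -2.92, VMS1 at -2.81, THR4 (1 screen) at -2.62, SRO9 at -2.32 and RAI1 at -2.02. All of them but RAI1 lay below RPN10, so the lowest 7 were no longer all proteasome queries.

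Reference pools were shared unevenly, since 8 proteasome queries had a screen against the same YEL068C pool. Within that pool UBX2 stood at -5.87 in POC4, -5.74 in IRC25, -5.74 in PRE9 and -2.05 in RPN10. The 4 others were ADD66 at -0.73, NAS6 at -0.25, NAS2 at -0.21 and RPN14 at 0.14. The pool's other screens were TRM11 at 0.35 and LYS9 at 0.54. The same reference population was thus used for some of the lowest UBX2 values and for values near 0.

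Over the 12 pools that held screens of both kinds, the proteasome median lay below the median of the other queries in 11. The differences ran from -9.50 to 0.60 with a median of -4.82. The pool at 0.60 held HUL5 as its only proteasome screen. With the mixed reference, 8 proteasome queries averaged -3.94 and 133 other queries 0.02. With the YEL068C reference, 8 proteasome queries averaged -2.82 and 41 other queries -0.30.

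Outside the proteasome, UBX2 was lowest in the NPR3 query, which lacks a subunit of the complex that restrains TORC1 when amino acids are short, at -2.97 and -3.41. MOD5, a tRNA isopentenyltransferase, gave -2.47 and -3.21. RPL12B, a protein of the ribosomal stalk base, gave -3.46 and -1.78. These queries lowered 476, 273 and 373 strains, and UBX2 ranked 193, 67 and 175 from the lowest.

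In the VMS1 query UBX2 was low while few other strains were. Vms1 is a Cdc48-binding protein of ribosome quality control and of damaged mitochondria, and its deletion lowered only 19 strains. UBX2 stood at -2.77, -3.05 and -3.46 in 3 screens, and at -1.12 in the fourth, on a turned array. The mean of -2.60 placed UBX2 at rank 6 of 3998 strains. The mean without the turned array was -3.09, and it was -2.04 as deposited.

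OTU1, the other Cdc48 cofactor among the queries, is a deubiquitinase, and UBX2 stood at -1.28 and -1.59 there, at rank 78 of 4047. The 2 cofactor queries averaged -2.02. IRC13 gave -3.10 and -1.73 and lowered 29 strains, with UBX2 at rank 12 of 3979. SRO9, an RNA-binding protein of the La-motif family, gave a mean of -2.58 with an SD of 0.60 over its screens.

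The next queries in the order were RAI1, the partner of the nuclear exonuclease Rat1, at -2.53 and -1.31, and UBP8, the deubiquitinase of the SAGA complex. Both UBP8 screens, at -1.48 and -2.17, were on turned arrays, so its mean of -1.82 reads 1.82 as deposited. With the reference pools as a block it was -2.54. GET3, which delivers tail-anchored proteins to the endoplasmic reticulum, gave -2.39 and -0.95. The exosome nuclease query RRP6, a TETO2 allele, gave -2.13 and -1.19.

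The high end was led by GCN2, the kinase that senses uncharged tRNA, at 1.42 and 3.41. TRM1, a tRNA methyltransferase, gave 1.66 and 1.65. NAM8, a U1 snRNP protein, gave 1.46 and 1.43, and the ribosomal protein query RPS14B gave 1.29 and 1.37. GCN4, the transcription factor whose translation Gcn2 controls, gave 1.55 and 1.01, on the same side as GCN2.

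Further means at the high end were 1.22 in HTB2 (histone H2B), 1.08 in EFT2 (elongation factor 2), 1.08 in SAN1 (a nuclear quality-control ubiquitin ligase), 1.01 in SLH1 (a helicase of ribosome quality control) and 0.96 in YAK1 (a stress-responsive kinase). One SLH1 screen, at 0.96, was on a turned array, and its mean was 0.06 as deposited.

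A class of 5 queries held genes of quality control, insertion and lipids at the endoplasmic reticulum, and 3 of its means were below 0. HRD1 encodes the ligase that Ubx2 binds, and UBX2 stood at 0.71 and 0.60 there, on turned arrays alone, so its mean of 0.65 reads -0.65 as deposited. Fitting the reference pools as a block moved the UBX2 mean in this query to -0.06. EPS1, a membrane-bound disulfide isomerase of the endoplasmic reticulum, gave 0.75 and 0.71. OPI1, the repressor of phospholipid genes, gave -0.12 on a turned array and -1.01, with a mean of -0.57, or -0.44 as deposited. DNF3, a lipid flippase, gave 0.23 and -0.76. With GET3, low at -1.67, these 5 queries averaged -0.22, and -0.46 as deposited. The difference between this class and the 2 Cdc48 cofactor queries, at -2.02, was not tested.

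Among 8 queries of the ubiquitin and SUMO system the mean was 0.30, and 0.44 as deposited. The ubiquitin ligase queries UBR1 (0.61 and 0.68) and TOM1 (0.78 and 1.00) were above 0 in both screens. UBC5, a ubiquitin-conjugating enzyme, gave -0.73 on a turned array and 0.64, and the SUMO query SMT3 gave 0.68 and -0.62, so their screens differed in sign. UBC11 (mean 0.85) and the ligase query DMA1 (0.79) rest on turned arrays alone, and read -0.85 and -0.79 as deposited. With the reference pools as a block they stood at 0.13 and 0.08. FUB1 and SPG5, both known to act on the proteasome, gave -0.38 and 1.06, and 0.45 and -0.44.

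**Figure D3:**
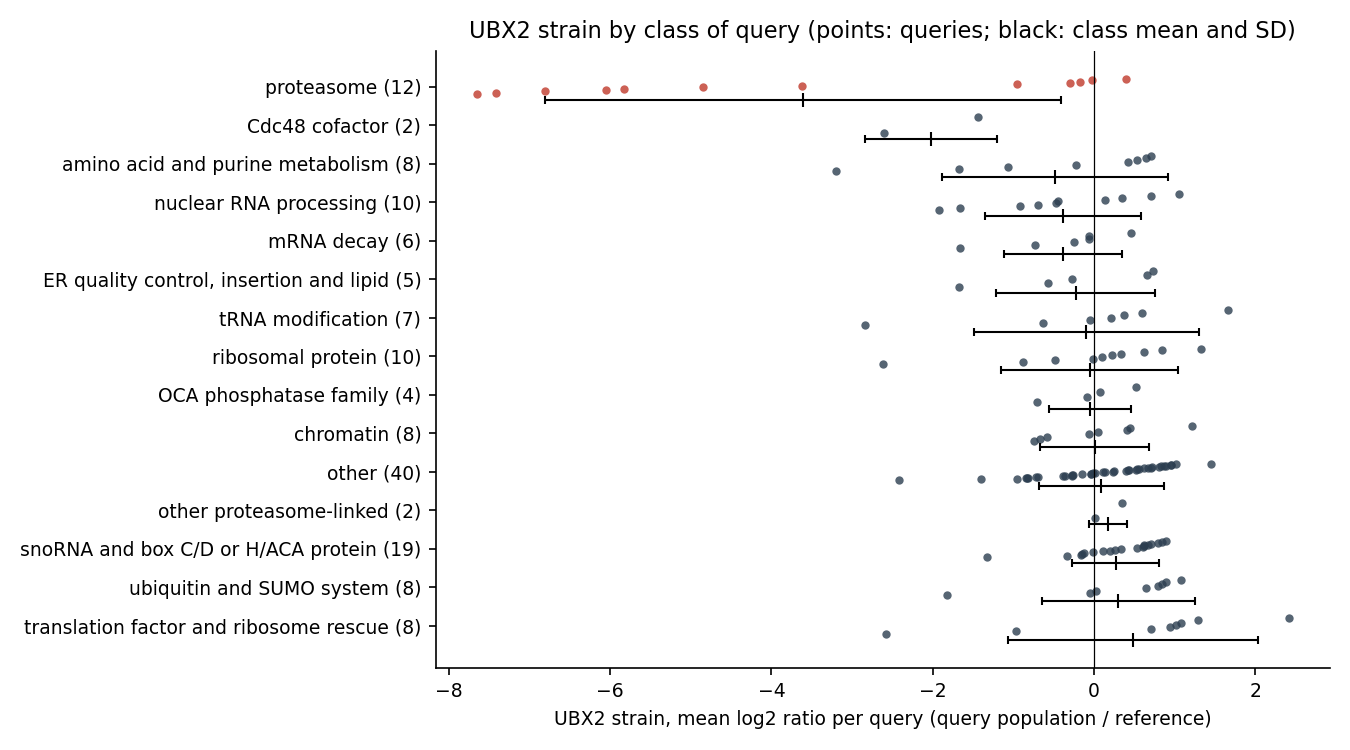
UBX2 mean log2 ratio per query (x axis, points) by class of query (y axis, number of queries in brackets), with the class mean and SD in black. The proteasome class averages -3.61 and the 2 Cdc48 cofactor queries -2.02, while the means of the remaining 13 classes lie between -0.48 and 0.49.

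The remaining classes spread around 0. Class means ran from -0.48 for 8 queries of amino acid and purine metabolism, which hold NPR3, to 0.49 for 8 queries of translation factors and ribosome rescue, which hold GCN2 as well as SRO9 and whose mean was 0.25 as deposited. The 19 snoRNA queries, the largest named class, averaged 0.27 ± 0.54 (SD). UBX2 in the 10 ribosomal protein queries ranged from -2.62 to 1.33.

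A further 5 queries lie within 100 genes of UBX2 and were left out, since linked loci seldom recombine in a cross. TRM9 is the next gene, and UBX2 stood at -4.50 and -6.53 in that query. HUG1, 50 genes away, gave -0.71 and 0.47, and MSN2, 63 genes away, gave -0.28 and -0.78. FPR3 (67 genes) gave -0.48 and -0.12, and SNR85 (96 genes) gave 0.94 and 0.68.

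Strains altered in genes next to UBX2 did not share its pattern. Of the 5 genes on each side, 6 had a strain with a value. In the proteasome queries they averaged 0.22 (YML018C), 0.07 (TAF11), 0.34 (ERV25), 0.18 (RAD33), -0.20 (SPT5) and -0.09 (MRPL39). None passed the class test in limma described below. In it ERV25 had a difference of 0.45 (adjusted p 0.000744) and YML018C one of 0.30 (adjusted p 0.00638), both under the size required. Their correlation with UBX2 over 148 or 149 queries ran from -0.36 to 0.17.

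Likeness to other strains was measured as Pearson's r of query means over at least 100 shared queries with at least 2 UBX2 screens. The points share reference pools and arrays, and the proteasome queries that chose UBX2 are among them, so r is a description. Of 3945 strains compared, the median r was -0.01 and 289 reached 0.5. The most alike strain was VPS60, which lacks an ESCRT-III-associated protein of endosomal sorting, at 0.850 over 128 queries. DID2 followed at 0.829, DCR2 at 0.802, VPS4 at 0.789, VPS13 at 0.789, DID4 at 0.772, VPS30 at 0.767, VAM3 at 0.765, SRN2 at 0.762 and YNL143C at 0.762.

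VPS4 encodes the ATPase that takes ESCRT-III apart, DID2 and DID4 encode ESCRT-III proteins and SRN2 an ESCRT-I subunit. VPS13 encodes a lipid transfer protein, VPS30 a subunit of the phosphatidylinositol 3-kinase, VAM3 the vacuolar syntaxin, and DCR2 a phosphatase known to act on Ire1. At the other end stood ATG26 at -0.579, YNL134C at -0.556, THI21 at -0.555, TOS4 at -0.553 and ATG16 at -0.544.

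In the proteasome queries VPS60 followed UBX2 at a lower size. It stood at -6.25 and -4.42 in RPN4, -4.39 and -4.81 in UBP6, -3.81 and -5.52 in PRE9, and -4.17 and -3.63 in POC4. In the queries that left UBX2 near 0 it stood at 0.24 and -0.05 (NAS6), 0.72 and 1.46 (RPN14) and -0.05 and -0.26 (HUL5). UBX2 was lower than all measured strains of the 10 most alike in SEM1, PRE9, IRC25 and POC4. In POC4 the gap was small, with UBX2 at -4.85 and the lowest of 9 measured strains at -4.74. The UBX2 screens there stood further apart, at -5.87 and -3.82. In RPN4, where UBX2 stood at -7.65, VPS4 was lower at -8.69. In UBP6 UBX2 stood at -7.42 and the lowest of the 10 at -7.43, a gap far inside the spread of the UBX2 screens. In RPN10 2 of the 10 were lower than UBX2.

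Without the proteasome queries VPS60 was again the most alike strain, at a lower r of 0.701 over 116 queries. VPS20, SNF8, STP22 and VPS27, all genes of the ESCRT pathway, stood at 0.683, 0.682, 0.680 and 0.680, and VPS38 and VPS25 at 0.666 and 0.660. The palmitoyltransferase strain SWF1 reached 0.678. MGA2 was at 0.673, at place 7 of 3844 strains, against place 60 with all queries. Of the 10 most alike strains, VPS60 and VPS30 were on both lists.

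Outside the proteasome class, UBX2 and the 10 most alike strains were low together in some queries and apart in others. In NPR3 UBX2 averaged -3.19 and the 10 most alike strains had a median of -3.49, with 6 of them lower than UBX2. In RPL12B UBX2 averaged -2.62 and 9 measured strains had a median of -2.92, with 5 lower. In RRP6 UBX2 was at -1.66, above their median of -2.74. In VMS1 UBX2 was at -2.60 while the same 10 strains lay between -0.50 and 0.44. In IRC13 UBX2 was at -2.41 and the 10 strains at -0.58 to 1.10. In GET3 UBX2 was at -1.67 and the others at -0.95 to -0.05, and in OTU1 UBX2 was at -1.44 and the others at -0.78 to 0.67. In these 4 queries none of the 10 reached -1.

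**Figure D4:**
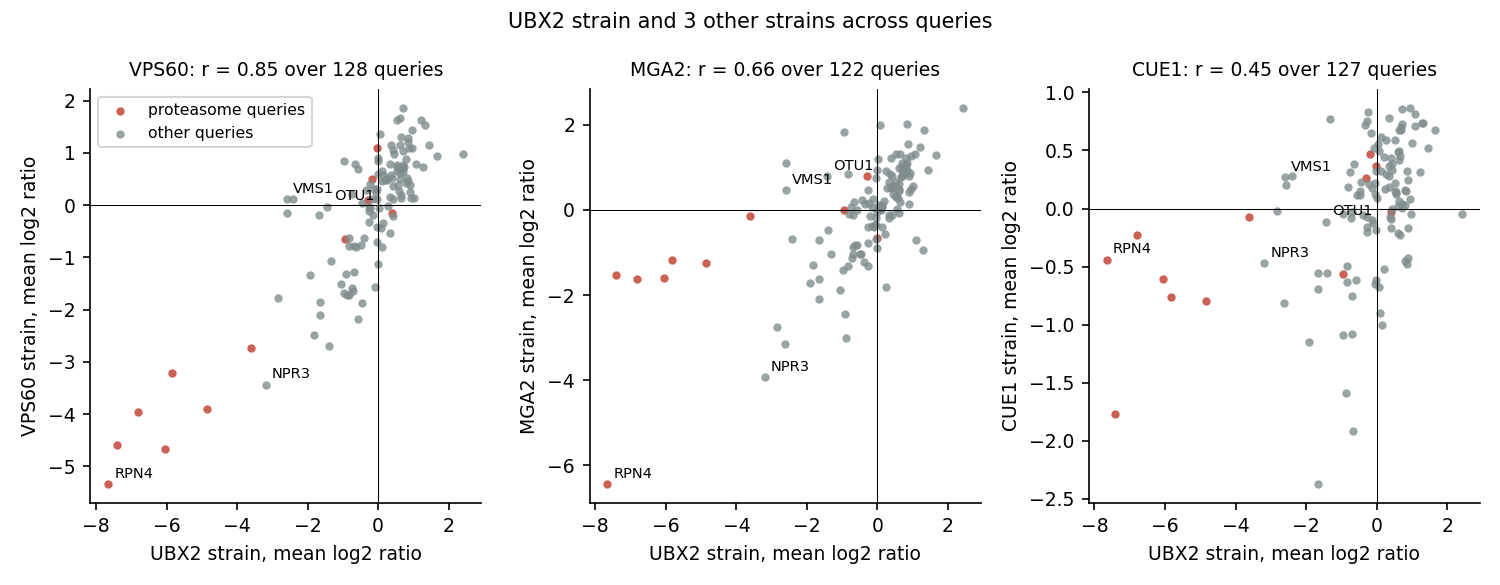
Mean log2 ratio per query of the UBX2 strain (x axis) against the VPS60, MGA2 and CUE1 strains (y axes); each point is a query with at least 2 UBX2 screens, proteasome queries in red. VPS60 and UBX2 lie along a line with r = 0.850, while VMS1 and OTU1 sit left of the main cloud in all 3 panels.

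The MGA2 strain lacks the transcription factor of OLE1 whose processing involves Ubx2, and it had an r of 0.662 with UBX2 over 122 queries. It was close to UBX2 in NPR3 (-3.92), MOD5 (-2.74), RPL12B (-3.15) and, on the high side, GCN2 (UBX2 2.42, MGA2 2.40). In SRO9 it stood at 1.10, in OTU1 at 0.80 and in VMS1 at 0.47, where UBX2 was low. In RPN10 it stood at -0.13, with screens at 1.29 and -1.56. SPT23, its paralog, had an r of 0.132.

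Strains of the ERAD machinery had a lower r with UBX2 than MGA2. The highest r was that of CUE1, the membrane anchor of the conjugating enzyme Ubc7, at 0.454. SSM4, the Doa10 ligase, had 0.316, and HRD1 had 0.251. DER1 had 0.145, YOS9 0.104, CDC48 0.036, UFD1 0.006 and DFM1 -0.02, and HRD3, the partner of Hrd1, had -0.402. Some of these strains varied little outside the proteasome class, with SDs of 0.36 (DER1), 0.28 (CDC48), 0.22 (UFD1) and 0.23 (DFM1), beside 0.96 for UBX2. An r near 0 in a strain that hardly varies does not show that it behaves unlike UBX2. The unfolded protein response strains HAC1 and IRE1 had 0.317 and 0.305, and -0.09 and -0.14 without the proteasome queries. No r was computed for USA1, within 100 genes of UBX2, or for UBC7, with under 100 shared queries. NPL4, SHP1 and UBC6 were not analysed here.

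Some ERAD strains were low beside UBX2 in a few queries outside the proteasome class, namely RRP6, RAI1 and GET3. These queries lowered 371, 115 and 202 strains of the pool. The strains named here were picked for their low values and are not the same ones in each query. Other members of the ERAD list are not given for these queries, so nothing about the list as a whole follows. In RRP6, UBX2 averaged -1.66, and UBC7, CUE1 and SSM4 averaged -2.39, -2.37 and -2.12. In RAI1, UBX2 averaged -1.92, UBC7 -1.38, CUE1 -1.15 and SSM4 -1.51. In GET3, UBX2 stood at -1.67 while HRD1 and YOS9, the lectin of the Hrd1 complex, stood at -2.13 and -3.19. The HRD1 strain lay between -0.63 and 0.88 in the 7 proteasome queries with the lowest UBX2 values.

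A class test placed the strains of Ubx2's surroundings beside it. For each strain the mean over the proteasome queries with a value was compared with that of the other queries with limma. Strains of the lists had a value in 10 to 12 of the 12 proteasome queries. Calls were taken at a difference of at least 0.5 and an adjusted p under 0.05 over all strains. Of all 4125 strains, 10.9% were lower and 1.6% higher, and the median difference was -0.0028. Both shares belong to the main setting. Quantile normalization called fewer of all strains lower, so its list counts are not to be read against 10.9%. Nor are list counts at an unadjusted p, with a query left out or with the mixed reference alone. No matching share of all strains is given for those list counts, so whether they exceed it cannot be read here. The lists below were drawn up with earlier results of these data known. Their counts in the main setting are therefore set beside 10.9% and 1.6% and given no test of their own. In each of the 8 lists 0 strains were higher in limma, and at an unadjusted p under 0.05 from 0 (insertion) to 2 (lipid) were.

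Where UBX2 stood at -3.60, 0 of 12 ERAD ligase strains were lower in limma, with a median difference of -0.04. At an unadjusted p under 0.05, 3 were lower. ASI1, of the ligase complex of the inner nuclear membrane, passed on p and not on size, at -0.25 (adjusted p 0.0297). CUE1 was at -0.43 (adjusted p 0.0605), and it stood at -0.51 (adjusted p 0.0331) without the NAS2 query. UBC7 was at -0.43 (adjusted p 0.134), SSM4 at -0.27, HRD1 at -0.26, DER1 at -0.09, YOS9 at 0.00, USA1 at 0.03, DFM1 at 0.09 and HRD3 at 0.22. Over single proteasome queries, 4 of 140 tested ERAD pairs were called lower, or 2.86%, beside 5.57% of all pairs in these queries. They were HRD1 in ADD66 (-1.08), UBC7 and CUE1 in UBP6 (-1.53 and -1.77) and SSM4 in PRE9 (-1.07). The 1 pair called higher was ASI3, of the same complex as ASI1, in RPN10 (1.06).

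Among Cdc48 and its cofactors 3 of 10 strains were lower, and 1 with quantile normalization. DOA1, a ubiquitin-binding Cdc48 cofactor that keeps up the supply of ubiquitin, differed by -2.14 ± 0.53 (SE, adjusted p 0.00116). UBX4, another UBX-domain protein, differed by -1.16 ± 0.21 (adjusted p 9.94e-06), with its lowest mean in RPN4 at -5.30. UFD2, which extends ubiquitin chains, differed by -0.75 (adjusted p 0.00976), and by -0.49 (adjusted p 0.106) without the RPN10 query. CDC48 and UFD1, both essential genes, were at 0.03 and -0.03. No strain of this list had a class difference as low as that of UBX2.

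Of 4 ubiquitin receptors and shuttles, RAD23, which carries ubiquitinated proteins to the proteasome, was lower at -1.34 (adjusted p 0.00402), and the other 3 were not called. Without the RPN10 query, where its mean was -6.99, it differed by -0.84 (adjusted p 0.0759). Proteasome strains moved far more often, with 32 of 39 lower, 19 with quantile normalization, and a median of -1.48. RPN4 led at -3.65 ± 0.76 (adjusted p 0.000116), the only one below UBX2, and SCL1, a core alpha subunit, followed at -2.65 ± 0.39 (adjusted p 8.95e-08). Leaving out each proteasome query in turn gave 27 to 33 lower strains in this list.

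Strains of the unfolded protein response and of folding in the endoplasmic reticulum had 2 of 16 lower, near the 10.9% of all strains. The count was 1 with quantile normalization and 5 with the mixed reference alone. Leaving out each proteasome query in turn gave 1 to 3. MPD2, a disulfide isomerase at -0.4994 (adjusted p 0.00397), was under the size required and passed it when any 1 of 7 queries was left out. LHS1, a chaperone of the lumen, differed by -1.90 ± 0.46 (adjusted p 0.000794). IRE1, the sensor of unfolded proteins, differed by -0.72 (adjusted p 0.000116), but by -0.34 (adjusted p 0.0136) without the RPN4 query, where it stood at -4.69. HAC1, the transcription factor it activates, stood at -5.74 in RPN4 and was not called at -0.38 (adjusted p 0.0807). In the other 10 proteasome queries with a value the HAC1 strain lay between -0.16 and 0.64. In UBP6, SEM1 and PRE9, UBX2 stood at -7.42, -6.81 and -6.05, and IRE1 at 0.09, 0.52 and -0.41.

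Insertion and translocation at the endoplasmic reticulum had 4 of 20 strains lower, and 1 with quantile normalization. Leaving out each proteasome query in turn gave 2 to 6. SEC66, of the post-translational translocon, differed by -1.94 ± 0.32 (adjusted p 1.36e-06), and SEC11, the catalytic subunit of signal peptidase, by -1.24 (adjusted p 0.00196). The tail-anchor pathway strains GET2 at -1.40 (adjusted p 0.0314) and GET3 at -0.78 (adjusted p 0.00706) lost the call with the reference pool as a block (-0.81, adjusted p 0.840, and -0.44, adjusted p 0.221). GET3 also lost it without the PRE9 query (-0.53, adjusted p 0.0823), and GET2 without any of PRE9, RPN10, RPN4, SEM1 and UBP6. EMC6 and GET4, at -0.47 (adjusted p 0.00357) and -0.46 (adjusted p 0.00109), were under the size required and passed it, at -0.55 and -0.53, without the HUL5 query. EMC6 also passed without UBP6, and GET4 without any of RPN4, SEM1 and UBP6.

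Lipid genes had 5 of 14 strains lower, and 2 with quantile normalization. NEM1 and SPO7, which form the phosphatase that activates yeast lipin, differed by -1.62 (adjusted p 1.96e-05) and -1.53 (adjusted p 0.000811). RSP5, the ligase that acts on Mga2 and Spt23, differed by -1.496 (adjusted p 0.00031), and OLE1 by -0.66 (adjusted p 3.64e-06). MGA2 differed by -1.27 ± 0.36 (adjusted p 0.00419), and SPT23 was at 0.01. The RPN4 query, with MGA2 at -8.46 and -4.43, weighed on these values: without it MGA2 stood at -0.75 (adjusted p 0.0947) and OLE1 at -0.47 (adjusted p 0.000558), under the size required. In the UBP6, SEM1, PRE9, IRC25 and POC4 queries UBX2 lay between -7.42 and -4.85, and MGA2 between -1.62 and -1.17.

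Mitochondrial outer membrane quality control had 3 of 8 strains lower, with DOA1 among them. With quantile normalization 0 were lower in limma, and 3 at an unadjusted p under 0.05. MSP1, which extracts misplaced membrane proteins, differed by -0.65 (adjusted p 0.000275) and lost the call with the reference block (-0.21, adjusted p 0.552). TOM6, a subunit of the import channel, differed by -0.59 (adjusted p 0.000601) and stood at -0.44 (adjusted p 0.0209) with that block, under the size required.

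**Figure D5:**
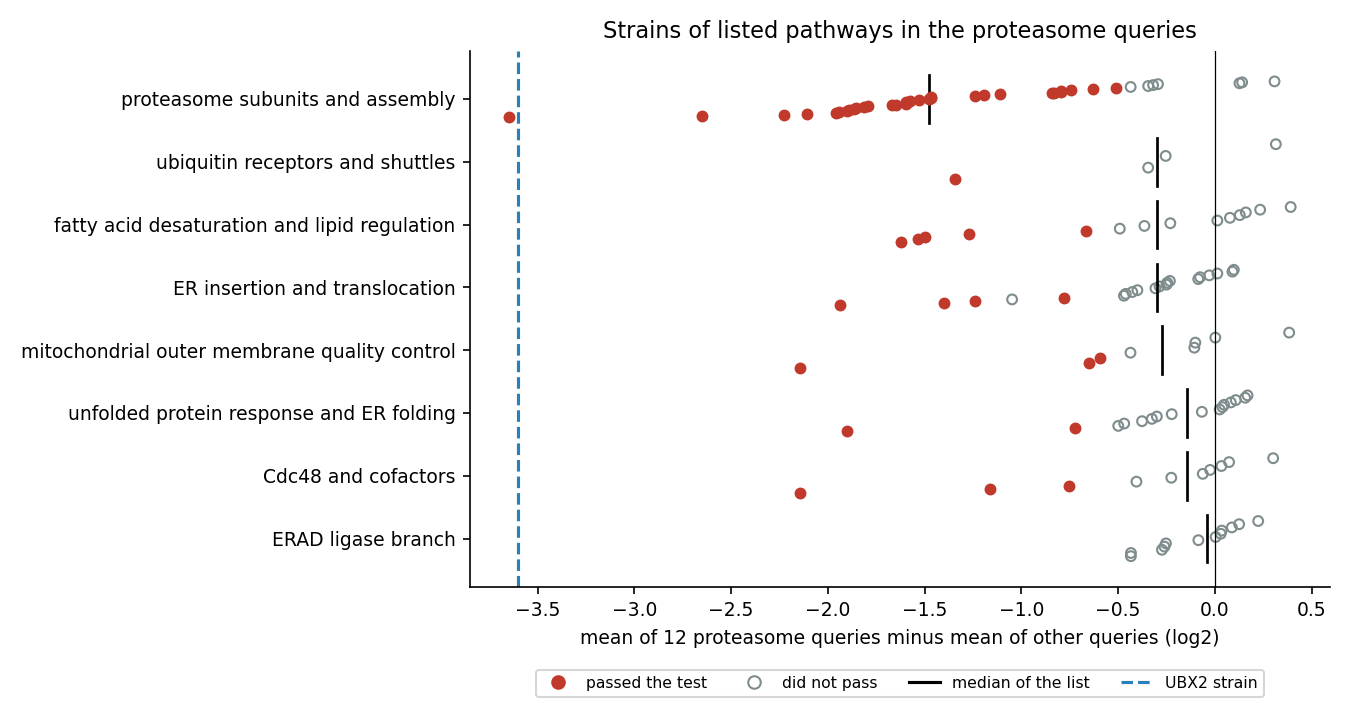
The x axis is the mean of the proteasome queries minus that of the other queries (log2). The y axis holds the measured strains of 8 lists, each with a value in 10 to 12 of the 12 proteasome queries. Filled points passed the test, open points did not, black bars are list medians and the dashed line is UBX2 at -3.60. A single listed strain, RPN4, lies left of the UBX2 line, and no ERAD ligase strain passed.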

How the data were processed

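The deposited values are ratios of the Cy3 and Cy5 channels and were taken as log2. The sources used here do not give their log base, normalization, centring or direction, nor a genome build. Both barcodes of each strain were amplified and hybridised together, per the labels' protocols. Ratios carry no depth, and precision is limited by how many arrays each query has.

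Features on at least 80% of arrays were kept (8632 of 15744) and averaged by gene symbol; 5098 of 5100 symbols matched the R64 annotation, used for names and gene order only. Each array held 3290 to 4125 strains and was centred on its median. An array was multiplied by -1 where the median of strains within 25 genes of its query was positive (17 arrays). Strains within 100 genes of a query were left out. Arrays of a screen were averaged, and limma 3.58.1 in R 4.3.3 fitted a mean per query with variances shared over queries. Benjamini-Hochberg correction ran over 547925 pairs with at least 2 screens. Query means were then compared between the proteasome class and other queries over 4125 strains. Limma tests were two-sided, and the fits were tested on simulated data. Python 3.11.15 did the rest.

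UBX2, the query classes and the lists were chosen with earlier results of these data known. The naming rule took UBX2 in each proteasome query, in the 10 lowest and 10 highest other queries with at least 2 screens, in queries of related classes and in queries within 100 genes. Strains named were the 10 most and 5 least alike, the 5 genes on each side, called list members and set partners. Of 32 lower proteasome strains only RPN4 and SCL1 are named. ASI1, ASI3, EMC6, GET4, MPD2, and the strains alike without the proteasome class, were added after their values were seen. Alternatives changed the direction, reference, replicates, normalization, centring and feature filter.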

Additional observations from a re-analysis of the deposited data

How the results depend on the processing

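The UBX2 difference between proteasome and other queries was -3.60. It stayed between -3.96 and -3.23 when each proteasome query was left out in turn, and between -3.89 and -3.29 without replicate 1 or 2 of each query. Quantile normalization moved it to -2.47. Over all strains in the class test, 450 were lower and 66 higher. The lower count was 298 with the reference pool as a block, 124 with quantile normalization and 228 at a difference of at least 1. The higher count was 27 with the reference block, 136 without centring (beside 363 lower), 23 with the mixed reference alone and 15 at a difference of at least 1. Pairs called lower numbered 12975 and higher 6808, and leaving out replicate 1 or 2 gave 8342 to 9404 and 3648 to 4452. Beside 124 lower among all 4125 strains, quantile normalization gave lower counts of 1 for the Cdc48, unfolded protein response and insertion lists. It gave 19 for the proteasome, 2 for the lipid and 0 for the mitochondrial list, where limma gave 3 at an unadjusted p under 0.05. The reference block gave 2 receptors, 2 insertion strains and 1 mitochondrial strain, and the mixed reference alone gave the same 3 counts and 5 strains of the unfolded protein response list. Leaving out replicate 1 or 2 gave 2 to 5 insertion strains. The r of VPS60 was 0.701 without the proteasome class and 0.745 with quantile normalization, where MGA2 had 0.488. As deposited, 7 of 13 UBX2 query means that rest wholly or in part on turned arrays had the other sign. The lipid list had 1 higher strain with the reference block and without centring. The cause was not tested.

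Replicate numbers name screens within a query. Over 9453 pairs of queries, deviations of same-numbered screens had a median r of 0.012, so the numbers do not pair the screens across all queries. The r ran from -0.646 to 0.869, and 24.5% of pairs were over 0.1. A median cannot show whether the numbers pair screens within some sets of queries. With replicate as a block the UBX2 difference was -3.60, with 449 lower and 63 higher strains. Among 62 listed strains, 24 lost the call with quantile normalization, 10 with the reference block and 7 with the mixed reference alone. Turning no array, or leaving the turned arrays out, changed no call among them. The proteasome queries hold no turned arrays, so only the means of the other queries could move in these settings. The settings without turned arrays, the further likeness settings and the listed strains without each query were chosen after seeing the data. UBX2 has 1 feature, so each feature alone was not run.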
